A study of Mus musculus with 15 samples.

Results

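The replication-coupled histone genes of the mouse were examined in chromatin of bone marrow-derived macrophages (BMDMs). They were taken as the protein-coding genes of the GENCODE M21 annotation (mm10) whose symbol starts with Hist1h, Hist2h, Hist3h or Hist4h, and 67 of 21938 protein-coding genes met this rule. By class, 6 encode the linker histone H1, 18 encode H2A, 18 encode H2B, 12 encode H3 and 13 encode H4. The chromatin had been profiled by CUT&RUN, in which an antibody tethers a nuclease to its target and the released fragments are sequenced. The targets were HA-tagged histone H3.3 (H3.3-HA), acetylation of H3 at lysine 27 (H3K27ac) and trimethylation of H3 at lysine 36 (H3K36me3). The HA tag sits in the endogenous H3f3b gene. Wild-type (WT) cells were H3f3a fl/fl H3f3b fl/fl with no Cre, and conditional knockout (cKO) cells had the same floxed genotype with LysM-cre on both copies of Lyz2, a gene active in granulocytes as well as macrophages. All mice were on a C57BL/6 background, were 8 to 10 weeks old and included males and females, and marrow was cultured for 6 to 8 days in medium conditioned by L929 cells. Lists of called regions from 10 libraries were used, with 2 libraries for H3.3-HA and, in each genotype, 2 for H3K27ac and 2 for H3K36me3.

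Replication-coupled histones are made in bulk during S phase to package newly copied DNA. Their genes sit in clusters, lack introns for the most part, and give mRNAs that end in a conserved stem-loop in place of a poly(A) tail. H3.3, in contrast, is made throughout the cell cycle from H3f3a and H3f3b and is placed into chromatin outside replication. H3K27ac marks active promoters and enhancers, and H3K36me3 is laid down along the bodies of transcribed genes. The question was how much of these short genes lay under regions of each target, whether this differed between the genotypes, and whether the H3 genes, the relatives of the targeted pair, differed from the other classes.

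For each gene the window was the gene body plus 1 kb on each side, and the measure was the number of its bases under called regions of a library. A region is a stretch in which the fragments of a library exceeded those of an IgG control at least 4-fold. The lists hold no heights, so more covered bases mean longer or more regions and not stronger signal. The window had a median of 2539 bp, against 19425 bp for all protein-coding genes. The genes fell into 7 clusters when gaps over 100 kb were taken as breaks. The largest held 29 genes including 7 H3 genes (chr13:23531050-23764406), the next 18 genes including 2 H3 genes (chr13:21715763-21837530), and the Hist2 cluster 10 genes including 3 H3 genes (chr3:96219865-96270132). Neighbors are close, and the windows of 55 genes overlapped that of another histone gene, so their values are not independent. In 12 pairs an H2A gene and an H2B gene start within 500 bp of each other on opposite strands. Of the 67 genes, 62 were annotated with a single exon.

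Sequences upstream of 5 genes that the comparison of genotypes turned on are shown first, since they carry the promoter elements by which the classes differ. Each runs 5′ to 3′ on the sense strand over the 150 bases before the RefSeq start (build GRCm38.p6, the same assembly as mm10). Capitals mark the TATA box (TATAAA), the box CCAAT and the H1 box (AAACACA), on either strand.
Hist1h1b (chr13:21780626-21780775, minus strand): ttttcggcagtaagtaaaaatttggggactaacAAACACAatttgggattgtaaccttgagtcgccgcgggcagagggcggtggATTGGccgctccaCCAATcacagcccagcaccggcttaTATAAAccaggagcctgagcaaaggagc
Hist1h2bj (chr13:22043048-22043197, plus strand): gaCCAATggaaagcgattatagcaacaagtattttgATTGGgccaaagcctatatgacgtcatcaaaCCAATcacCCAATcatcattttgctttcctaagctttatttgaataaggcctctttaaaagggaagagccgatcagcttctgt
Hist1h3c (chr13:23745522-23745671, minus strand): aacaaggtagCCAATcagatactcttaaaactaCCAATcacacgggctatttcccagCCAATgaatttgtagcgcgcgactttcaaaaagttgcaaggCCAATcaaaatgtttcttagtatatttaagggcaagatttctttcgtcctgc
Hist1h3h (chr13:21717478-21717627, plus strand): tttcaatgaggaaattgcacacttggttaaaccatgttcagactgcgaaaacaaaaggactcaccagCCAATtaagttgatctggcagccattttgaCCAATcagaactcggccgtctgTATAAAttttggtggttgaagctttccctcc
Hist1h4k (chr13:21750554-21750703, minus strand): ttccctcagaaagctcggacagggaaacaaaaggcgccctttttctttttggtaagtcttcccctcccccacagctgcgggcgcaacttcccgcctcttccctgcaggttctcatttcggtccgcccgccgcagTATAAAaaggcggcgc

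A RefSeq promoter window, from 250 bases before to 50 bases after the start, was matched to 62 of the 67 genes and searched on both strands. CCAAT, the box read by the trimeric factor NF-Y, was found in 53 of the 62 windows (85.5%), against 37.4% of all 32851 promoter windows. It was in every matched window of H1, H2A, H2B and H3 genes, but in only 3 of 12 windows of H4 genes. TATAAA was in 56.5% of the histone windows and 13.6% of all windows. The octamer ATTTGCAT, the element classically tied to H2B promoters, was in 7 of 18 H2A and 6 of 16 H2B windows and in 0 windows of the other classes, against 1.74% of all windows. AAACACA, known as the H1 box, was in 5 of 6 H1 windows against 7.18% of all windows. These matches are descriptions of the letters in the windows and not measured binding sites.

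The 3′ stem-loop, which the stem-loop binding protein reads during processing of histone mRNA, was searched on the sense strand from 700 bases before to 300 bases after each annotated gene end. The pattern was a perfect 6-base-pair stem opening with GGYYYW and a 4-base loop THTH. Here Y is C or T, W is A or T, and H is any base but G. It was found in 49 of 67 histone genes (73.1%) and in 51 of all 21938 genes (0.232%). It was present in 10 of 12 H3 genes. Since the pattern fixed or limited each base, the likeness between matches was partly set in advance. The following stem-loops of H3 genes and an H1 gene are in capitals, with 5 flanking bases on each side.
Hist1h3b (chr13:23752820-23752835, plus strand): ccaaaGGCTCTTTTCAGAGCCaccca
Hist1h3h (chr13:21718095-21718110, plus strand): tcaaaGGCTCTTTTCAGAGCCaccca
Hist1h3g (chr13:23535889-23535904, plus strand): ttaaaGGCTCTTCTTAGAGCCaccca
Hist1h3c (chr13:23745047-23745062, minus strand): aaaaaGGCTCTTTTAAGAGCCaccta
Hist1h1b (chr13:21779837-21779852, minus strand): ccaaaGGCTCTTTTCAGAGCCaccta
Within this pattern the genes had 8 distinct 16-base stem-loops, and the most frequent, the form of Hist1h3b, was found in 27 genes.

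Depth and library differences bear on all values below. Tags per library, as the file headers give them, were between 5365319 (H3.3-HA replicate 2) and 29988098 (cKO H3K27ac replicate 1). For H3K27ac, the regions held 24.1% and 21.5% of tags in WT and 11.8% and 17.8% in cKO. The H3K36me3 list of cKO replicate 1 stood apart, with 19.3% of tags in regions against 46.5% to 50.2% in the other 3. Regions lay at 8 of 8 macrophage markers for H3.3-HA and WT H3K27ac in both libraries, and at 7 of 8 for cKO H3K27ac. Coverage by H3K27ac was lower in cKO than in WT at 4 of these 8 markers (Adgre1, Itgam, Lyz2 and Mertk), beside 22.0% of all genes. It was higher at 1 (Cd68), beside 10.3% of all genes. Lyz2 is the locus that carries Cre in the cKO, and 8 genes are too few for these counts to be read as apart from all genes. Some macrophage markers thus differed by label too, and their part in the results at histone genes was not tested. At Mertk the values were 11306 and 7370 bp in WT and 0 and 1130 bp in cKO. H3K27ac regions were called at 0 of 4 T cell and 0 of 3 fibroblast markers in WT and in cKO. At 4 B cell markers, H3K27ac was called in both libraries at 1 in WT and 2 in cKO. At 4 neutrophil markers and at 3 erythroid markers it was called in both libraries of either label at 0. H3.3-HA was called in both libraries at the T cell marker Cd4, the neutrophil marker S100a8 and the B cell markers Ms4a1 and Cd79a.

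Regions were still called at the targeted genes in the libraries labelled cKO. H3f3b (chr11:116021912-116027962), all exons of which lie in the floxed interval, had 1446 and 1461 bp of its body under H3K27ac regions in WT and 3351 and 4453 bp in the libraries labelled cKO. H3f3a (chr1:180800832-180813943), of which only an internal exon is floxed, had 2153 and 2163 bp in WT and 3531 and 2731 bp in the libraries labelled cKO. At Lyz2, the locus that carries Cre in the cKO, H3K27ac covered 6414 and 5837 bp in WT and 1230 and 641 bp in the libraries labelled cKO, so at that locus the lists differed by label. Called regions do not measure how many cells kept an allele. The study checked the deletion by PCR, RNA and protein, and described that of H3f3b as variable. The H3K27ac and H3K36me3 lists are therefore named below by their label, cKO-labelled, and a direction drawn from them is a direction between labels.

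With the full window, H3.3-HA regions were found at most histone genes in each library. A region reached 43 genes in replicate 1 and 44 in replicate 2, and 37 of 67 (55.2%) had a region in both, against a background of 41.7% of all protein-coding genes. The difference from all genes depended on the window and on how bases were assigned. With bases given to the nearest gene, 29 histone genes (43.3%) had regions in both libraries, against 40.6% of all genes. Within 1 kb of the start, 47.8% of histone genes had H3.3-HA regions in both libraries, against 13.3% of all genes. In the gene body alone the order turned, with 29.9% of histone genes against 37.5% of all genes, and with regions of at least 1 kb it was 22.4% against 24%. The mean share of the window under regions was 20.8% and 27% in the pair of libraries, against 5.32% and 7.97% for all genes, whose windows are longer.

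The gene with the most H3.3-HA bases was Hist1h2be, an H2B gene with a spliced transcript and a 37455 bp body, at 4027 and 4885 bp. It was followed by 2 linker histone genes. Hist1h1b, which encodes H1.5, had 2703 and 1851 bp of its 2743 bp window covered. Hist1h1d, which encodes H1.3, had 1358 and 2947 bp of a 9425 bp window covered. The H4 gene Hist1h4d had 1654 and 2441 bp of 3138 bp, and the H2A gene Hist1h2ak had 2308 and 1750 bp of 2393 bp. By share of the window, Hist1h1b was the most densely covered of these 5 genes in replicate 1 (98.5%) and Hist1h4d in replicate 2 (77.8%), and Hist1h2be was the least in both. Hist1h2ak shares its start region with the H2B gene Hist1h2bn, which had 2132 and 1498 bp.

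Among the 12 H3 genes, 5 had H3.3-HA in both libraries, and among the other histone genes 32 of 55 did, beside the 41.7% of all genes given above. Hist1h3c had 1592 and 1467 bp, Hist1h3b 1159 and 1992 bp, and Hist1h3g 1137 and 1359 bp. In the Hist2 cluster Hist2h3c2 had 869 and 962 bp. Hist1h3h had 475 and 1140 bp, a spread between replicates (807.5 ± 470.0 bp, SD, n = 2) that was wide relative to its mean. The remaining 7 H3 genes were covered in a single library or in neither. Hist1h3i, Hist1h3e and Hist2h3b had 912, 277 and 776 bp in replicate 2 and 0 bp in replicate 1. Hist1h3a and Hist2h3c1 had 680 and 501 bp in replicate 1 and 0 bp in replicate 2. Hist1h3d and Hist1h3f had 0 bp in both.

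**Figure D1:**
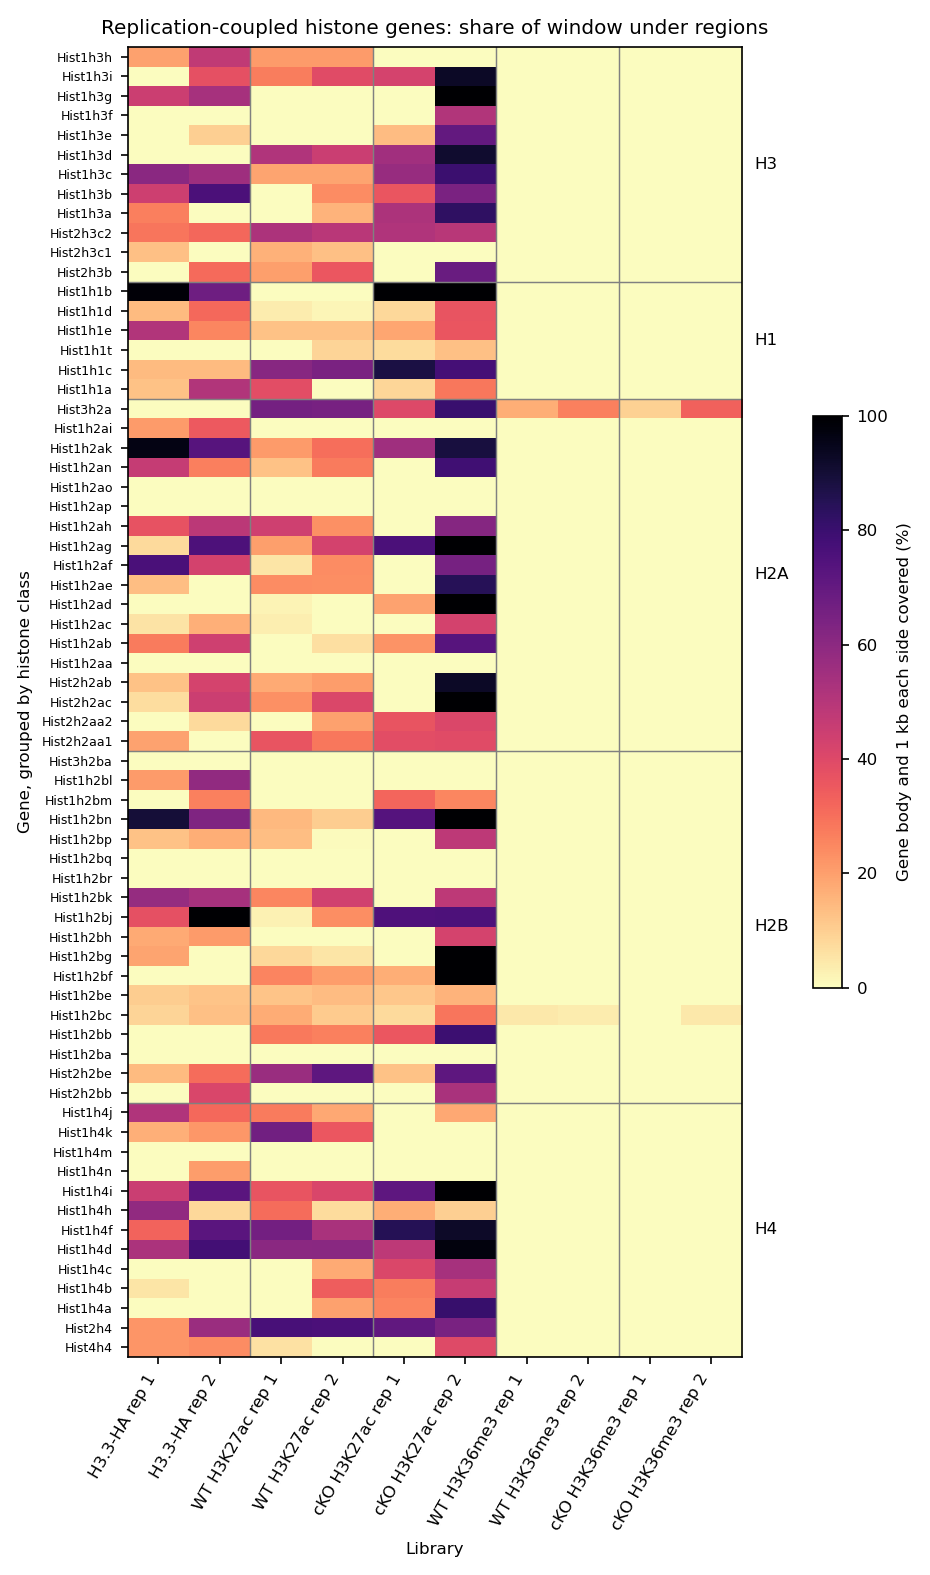
Share of each gene's window (body and 1 kb each side) under called regions, in percent, for the 67 histone genes (rows, grouped by class) in the 10 libraries (columns). The H3K36me3 columns are empty except at Hist3h2a and Hist1h2bc, and cKO H3K27ac replicate 2 is darker than the other 3 H3K27ac libraries, with a mean of 51.9%.

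In WT cells H3K27ac also reached 37 of 67 histone genes (55.2%) in both libraries, against 44.8% of all genes. This order also turned in the gene body alone (20.9% against 41.8%), with regions of at least 1 kb (20.9% against 30.7%) and with the widest regions in lists of equal number (25.4% against 37.7%). With bases given to the nearest gene the shares were close, at 46.3% against 43.4%. The mean share of the window was 17.5% and 19.3%, against 8.78% and 7.27% for all genes, whose windows are longer. Within 1 kb of the start the mean share was 14.7% and 16.7%, against 17.3% and 16% for all genes. Class means in WT, with n = 2 libraries, were 28.2% ± 0.402 (SD) for H4, 19.6% ± 3.26 for H3, 17.4% ± 3.04 for H2A, 17.0% ± 3.34 for H1 and 11.9% ± 0.886 for H2B. H4 genes were highest and H2B genes lowest in both libraries, while H1, H2A and H3 genes differed by less than their spread. For H3.3-HA the order was different, with H1 at 31.6% ± 0.245, H4 at 26.6% ± 4.26 and H2B at 20.2% ± 5.83. H1 genes were highest and H2B genes lowest in both libraries, while the means of H2A, H3 and H4 genes differed by less than the SD of H4.

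H3.3-HA and H3K27ac regions shared genes and, in part, bases. Both H3.3-HA and both WT H3K27ac libraries had a region at 27 genes (40.3%), against 33.7% of all genes. Of the bases in histone windows that both H3.3-HA libraries covered (21200 bp), 33.2% were also covered in both WT H3K27ac libraries. Of the bases that both WT H3K27ac libraries covered (29194 bp), 24.1% were covered in both H3.3-HA libraries. H3.3-HA in both libraries with no WT H3K27ac in either was found at 5 genes (7.46%, against 4.54% of all genes), Hist1h2bl, Hist1h2ai, Hist1h1b, Hist1h3g and Hist1h2bh. The converse was found at 4 genes (5.97%, against 4.32%), Hist3h2a, Hist1h2bf, Hist1h3d and Hist1h2bb. These 9 genes were named after their values were seen.

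A feature of the WT H3K27ac regions was that they seldom reached the start base of histone genes. Gene bodies were covered too, at a mean share of 12.5% and 15.7%, against 18.8% and 20% of the flanks. The annotated start base lay under a region at 3 and 2 of the 67 histone genes (4.48% and 2.99%) in the 2 WT libraries, while 14.5% of all genes had a covered start in each. The covered share of histone genes was highest 900 bp downstream of the start, at 31.3% and 32.8%. Of the histone genes with a WT H3K27ac region in the window, 92.7% and 95.6% had no region over the start base. Among all genes, whose windows are longer, 49.6% and 47.7% had a region and 14.5% a covered start. A region that left the start bare was therefore common among all genes too. Only Hist1h4k, Hist1h4f, Hist1h4a and Hist2h4, all of them H4 genes, had a covered start in either WT library. For H3.3-HA the start was covered at 17.9% and 19.4% of histone genes, against 4.7% and 10.1% of all genes, and the highest share was 29.9% at 800 bp and 41.8% at 700 bp downstream.

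In the cKO-labelled libraries the H3K27ac profile was different in shape. The start base was covered at 15 genes (22.4%) in replicate 1 and 44 genes (65.7%) in replicate 2. It was covered in both cKO-labelled and neither WT library at 13 of 67 histone genes (19.4%), against 11.8% of all genes, and in both WT and neither cKO-labelled library at 0, against 1.19%. Among all genes the share with a covered start was also larger, at 25% and 33.6% in the cKO-labelled libraries against 14.5% in each WT library. The 13 genes were Hist1h1b, Hist1h1c and Hist1h1e of H1, Hist1h2ag and Hist2h2aa1 of H2A, Hist1h2bj and Hist1h2bm of H2B, Hist1h3a and Hist1h3b of H3, and Hist1h4b, Hist1h4c, Hist1h4d and Hist1h4i of H4. Counting covered start bases was decided after the profile had been seen.

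**Figure D2:**
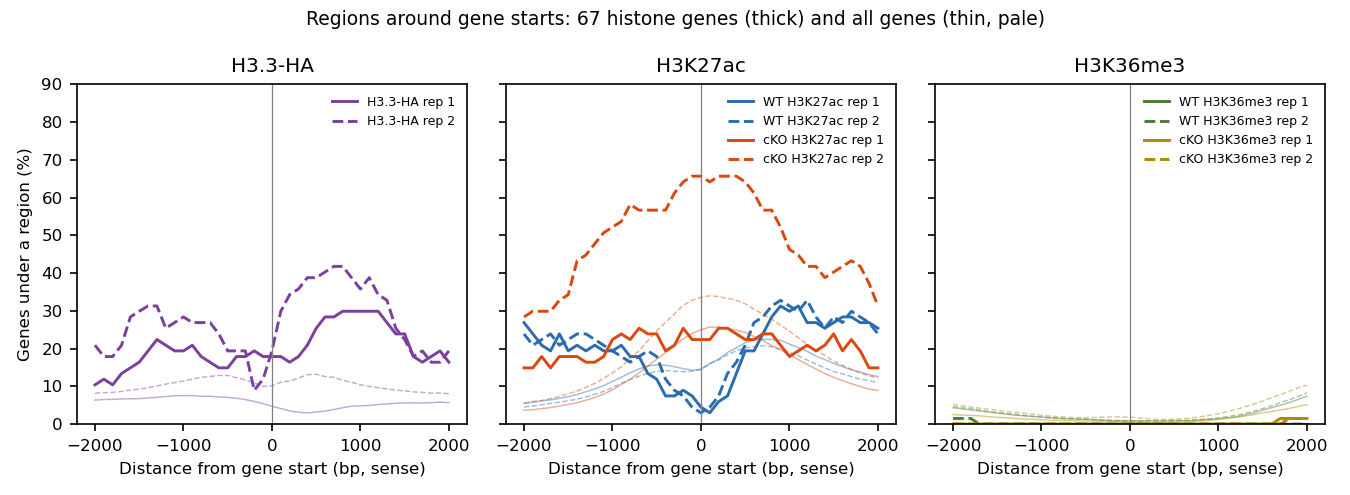
Percent of genes under a region at each distance from the annotated gene start, from 2000 bp upstream to 2000 bp downstream in steps of 100 bp, for the 67 histone genes (thick) and all protein-coding genes (thin, pale). Solid lines are replicate 1 and dashed lines replicate 2. WT H3K27ac dips at the start of histone genes to 4.48% and 2.99%, and the cKO-labelled libraries do not.

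The near-identity of histone genes bears on these positions, because read pairs of 25 bp per read were aligned. The shares below take each 25-base sequence alone, whereas a repeated read could also be placed by its mate. Of the 25-base sequences in the body of a histone gene, a median of 41.8% occurred once in the assembled chromosomes, against a median of 84.6% in the flanking 1 kb. In the H3 genes the medians were 39.2% and 89.3%. In the same bodies the mean covered share for H3K27ac was 12.5% and 15.7% in WT and 23.3% and 58.5% in the cKO-labelled libraries, and in the flanks it was 18.8% and 20.0% against 21.6% and 50.9%. The part of sequence identity in the dip was not tested.

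Between the labels, similar numbers of histone genes had H3K27ac, and more of them had longer coverage in cKO-labelled cells than in WT cells. Both cKO-labelled libraries had a region at 36 of 67 genes (53.7%), against 43.9% of all genes, beside the 37 of WT. With bases given to the nearest gene it was 44.8% against 43% of all genes. Both cKO-labelled libraries exceeded both WT libraries at 24 of 67 genes (35.8%), against 10.3% of all genes. Both were below at 4 genes (5.97%), against 22.0% of all genes. Another 28 genes (41.8%, against 24.7% of all genes) had a region in some of the 4 libraries with overlapping values, and 11 had none. A region in any of the 4 libraries was found at 83.6% of histone genes and 56.9% of all genes. With 2 libraries against 2, the smallest p of a two-sided exact permutation test is 0.333, so no single gene could reach 0.05, and each of the 28 separated genes had this value.

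The size of the difference rested on cKO-labelled replicate 2. The mean share of the window was 22.1% in cKO-labelled replicate 1 and 51.9% in replicate 2, and replicate 2 exceeded replicate 1 at 47 genes (70.1%, against 41.0% of all genes). Without replicate 2 the count was 24 genes above and 21 below WT, against 11.7% and 31.3% of all genes, so the number above was the same and the near absence of genes below was lost. Without replicate 1 it was 48 above and 4 below, against 21.2% and 22.9% of all genes. Counted within 1 kb of the start, 22 genes (32.8%) were above, against 18.0% of all genes, and 3 (4.48%) below, against 5.68%, which brought the histone genes nearer to the rest of the genome.

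**Figure D3:**
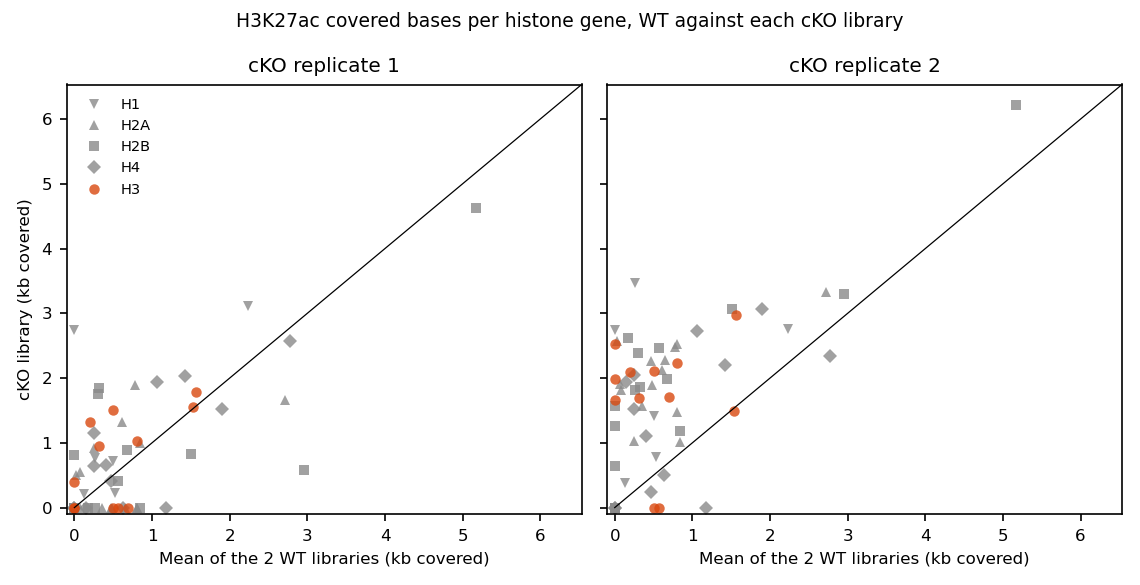
Kilobases of each histone gene's window under H3K27ac regions in cKO-labelled replicate 1 (left) and replicate 2 (right) against the mean of the 2 WT libraries, 1 point per gene, with H3 genes in orange and the line of equality. In replicate 1, 24 genes lie above both WT libraries and 21 below, and in replicate 2 these counts are 48 and 4.

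The largest difference was at Hist1h1b, whose promoter is shown above. It had 0 bp under H3K27ac in both WT libraries and its whole window of 2743 bp in both cKO-labelled libraries, with no overlap between the groups. It was also among the genes with H3.3-HA in both libraries and no WT H3K27ac, and 97% of its 25-base sequences were unique. Hist1h1d was next, at 341 and 181 bp in WT and 768 and 3461 bp in cKO-labelled cells, where replicate 2 carried most of the difference (2114 ± 1904 bp, SD, n = 2). Of the other H1 genes, Hist1h1c, which encodes H1.2, had 2177 and 2290 bp against 3119 and 2754 bp. Hist1h1e, which encodes H1.4, had 501 and 501 bp against 727 and 1418 bp. The 4 H1 genes above WT thus ranged from none to most of the window covered in WT, whereas Hist1h1a and Hist1h1t overlapped between labels.

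The divergent pairs gave several of the next genes. Hist1h2bn had 349 and 251 bp in WT and 1752 and 2381 bp in cKO-labelled cells, and its partner Hist1h2ak had 501 and 727 bp against 1321 and 2119 bp. Hist1h2bj had 58 and 583 bp against 1847 and 1857 bp, and its partner Hist1h2ag 501 and 1063 bp against 1890 and 2485 bp. At none of these 4 genes did the groups overlap. Hist1h2ad, in contrast, had 51 and 0 bp against 501 and 2572 bp, and its partner Hist1h2bf overlapped between labels. Of the 12 divergent pairs, 2 had both genes above WT and 1 had a single gene above, and the windows of a pair overlap. Of all genes, taken singly, 10.3% were above WT.

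Among the H3 genes, 6 of 12 were above WT and 2 below, beside 10.3% and 22.0% of all genes. Hist1h3a had 0 and 401 bp in WT and 1317 and 2094 bp in cKO-labelled cells. Hist1h3c had 501 and 501 bp against 1507 and 2102 bp (a difference of 1304 bp). Hist1h3b had 0 and 635 bp against 944 and 1686 bp. These 3 genes lie in the large chromosome 13 cluster, and all of them had an H3.3-HA region in at least 1 library. Hist1h3e had 0 bp in both WT libraries and 395 and 1984 bp in cKO-labelled cells. Hist1h3i had 657 and 947 bp against 1025 and 2240 bp, and Hist1h3d 1666 and 1471 bp against 1784 and 2970 bp. At Hist1h3i and Hist1h3d the value of cKO-labelled replicate 1 was close to the higher WT value.

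H3 genes also made up 2 of the 4 histone genes below WT. Hist1h3h had 501 and 501 bp in WT and 0 bp in both cKO-labelled libraries, and Hist2h3c1 had 629 and 501 bp against 0 and 0 bp. The H4 gene Hist1h4k had 1541 and 823 bp against 0 and 0 bp, the largest difference in this direction (1182 bp lower on average). Hist2h4, also of H4, kept most of its coverage, with 2789 and 2763 bp against 2566 and 2345 bp. A value of 501 bp is that of a single peak of the smallest usual size, so at Hist1h3h the groups were separated by 1 such peak. A region present in both WT and neither cKO-labelled library was found at 3 of 67 genes (4.48%), against 2.06% of all genes. The converse, against 2.12% of all genes, was also found at 3, Hist1h1b, Hist1h2bm and Hist1h3e.

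The other 4 H3 genes overlapped between labels. Hist2h3c2 was nearly constant, at 1577 and 1486 bp in WT and 1553 and 1498 bp in cKO-labelled cells. Hist1h3g had no H3K27ac region in either WT library or in cKO-labelled replicate 1, and its whole window of 2530 bp was covered in replicate 2. Hist1h3f likewise had 0, 0, 0 and 1662 bp. Hist2h3b had 501 and 888 bp against 0 and 1710 bp. At the latter 3 genes the cKO-labelled replicates disagreed, with replicate 2 the only one covered.

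By cluster, the 24 genes above WT were 14 of 29 in the large chromosome 13 cluster, 5 of 18 in the second, 3 of 5 in the small cluster at chr13:22035164-22043676 and 2 of 10 in the Hist2 cluster. The large cluster had 0 genes below WT. Of all genes, 10.3% were above WT and 22.0% below. The Hist2 cluster had the most H3K27ac coverage of the 3 larger clusters in WT, with 42.8% and 45.8% of its windows covered, against 15.7% and 16.3% in the large chromosome 13 cluster and 12% and 11% in the second. In cKO-labelled cells the Hist2 windows were at 29.9% and 54.0%, on either side of the WT values, and those of the large cluster at 17.8% and 40.2%. Hist2 was also covered between its windows, at 35.9% and 31.8% in WT, against 8.04% and 9.92% in the large cluster.

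**Figure D4:**
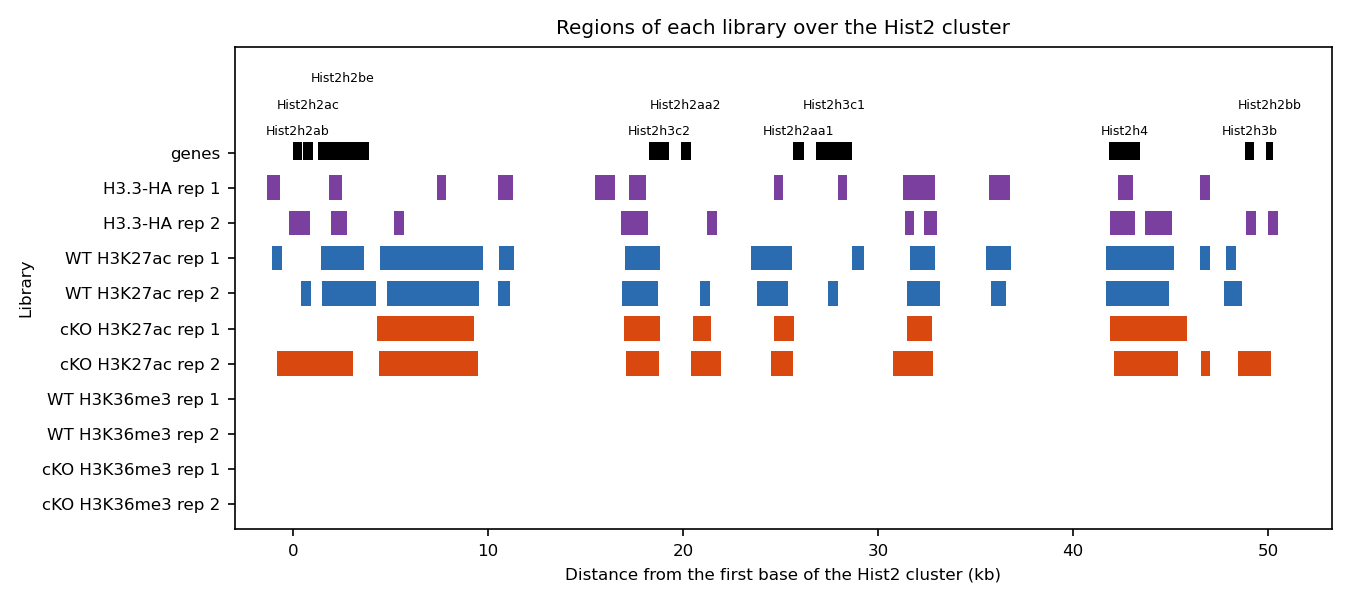
Called regions of the 10 libraries (rows) over the Hist2 cluster, by distance in kb from its first base, with gene bodies in black on top. H3K27ac regions of WT and cKO-labelled libraries recur between the genes as well as on them, the regions over Hist2h4 and Hist2h3c2 are present in all 4 H3K27ac libraries, and there is no H3K36me3 region.

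As a class, H3 genes did not stand apart from the other 55 histone genes by more than the replicate spread for H3.3-HA or WT H3K27ac. The mean share of the window under H3.3-HA was 24.2% ± 6.21 (SD, n = 2 libraries) for H3 genes and 23.9% ± 4 for the others, a difference of 0.379 ± 2.20 percentage points, and its sign differed between the libraries (-1.18 and 1.94). For WT H3K27ac the difference was 1.42 ± 2.43 points, again with opposite signs (-0.295 and 3.14). In cKO-labelled cells H3 genes were at 44.1% ± 26.1 and the others at 35.5% ± 20.1. That difference, 8.65 ± 6.01 points, was positive in both libraries (4.41 and 12.9), and it was 3.98 points within 1 kb of the start. Both values lay above the WT values of -0.295 and 3.14, while the ranges of mean ± SD overlapped. With 2 libraries on each side, the cKO-labelled difference could not be told apart from the WT difference by a test. By count, H3K27ac was above WT at 50% of H3 genes and 32.7% of the other histone genes, beside 10.3% of all genes. Among the H1 genes it was above at 66.7%. It was below WT at 16.7% of H3 genes, 3.64% of the other histone genes and 0% of H1 genes, beside 22.0% of all genes.

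**Figure D5:**
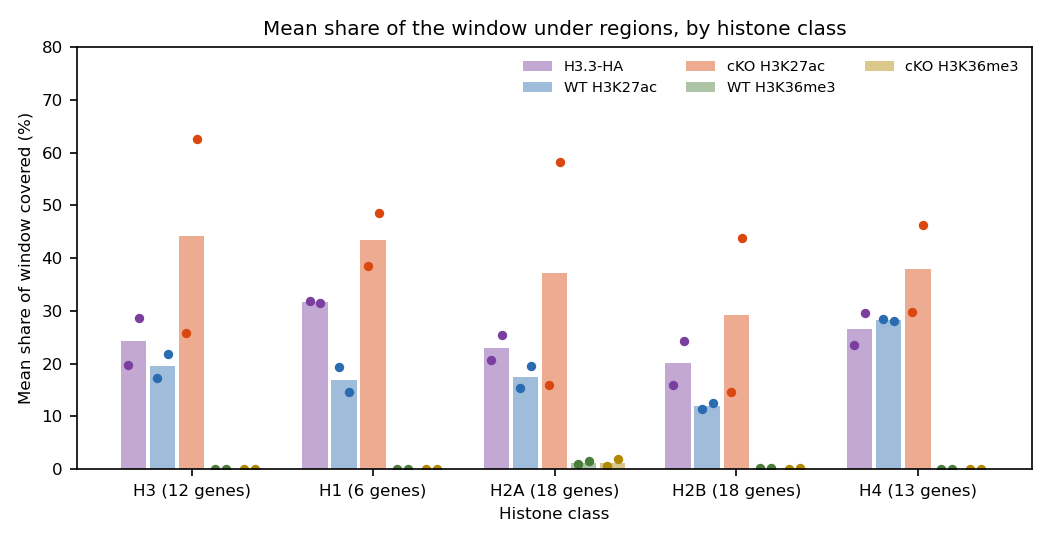
Mean share of the window under regions by histone class, in percent, with bars for the mean of 2 libraries and points for each library. The H3K27ac points of the cKO-labelled libraries lie far apart in each class, and H3 genes lie within the range of the other classes for H3.3-HA and WT H3K27ac.

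H3K36me3 was nearly absent from histone genes. Both WT libraries had a region at 2 of 67 genes (2.99%), against 46.5% of all genes, and both cKO-labelled libraries at 1 (1.49%), against 41.5%. Hist3h2a, an H2A gene on chromosome 11, had 699 and 1098 bp in WT and 404 and 1373 bp in cKO-labelled cells. Hist1h2bc, an H2B gene with an annotated spliced transcript and a body of 8710 bp, had 501 and 391 bp in WT and 0 and 501 bp in cKO-labelled cells. Neither gene was separated between labels, and the counts above and below WT were 0 and 0, against 4.26% and 20.2% of all genes. None of the H1, H3 or H4 genes had an H3K36me3 region in any library. The windows of all genes are longer. Within 1 kb of the start, 0 histone genes had H3K36me3 in both WT libraries, against 2.27% of all genes, and the mark was scarce there in either set.

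No library had a region at 8 histone genes (11.9%), against 34.2% of all genes. They were Hist3h2ba, Hist1h2ba, Hist1h2aa and 5 genes of the second chromosome 13 cluster, Hist1h2bq, Hist1h2ao, Hist1h4m, Hist1h2ap and Hist1h2br. In those 5, between 0% and 2.61% of the 25-base sequences of the window were unique in the genome, since the segment is present in near-identical copies. The absence of regions there cannot be told apart from reads without a single best place. Hist1h4n, in the same segment and with 4.99% unique sequences, had a region in 1 library. Hist3h2ba, Hist1h2ba and Hist1h2aa had 89.9%, 87.4% and 84.9% unique sequences and still no region. Hist1h2ba and Hist1h2aa are known as testis histone genes, and whether this bears on the absence of regions was not tested. At the other end, 17 genes (25.4%) had a region in all 6 H3.3-HA and H3K27ac libraries, against 30.2% of all genes. Among them were Hist1h3c and Hist2h3c2 of H3. A region in all 10 libraries was found at 0 histone genes, against 25.2% of all genes.

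Genes that process histone mRNA or assemble histones were also examined. Of 11 genes of the histone mRNA list, which includes Slbp for the stem-loop binding protein and Npat for the coactivator of histone transcription at the histone locus body, 0 had longer H3K27ac and 3 had shorter H3K27ac in cKO-labelled cells, beside 10.3% and 22.0% of all genes. Npat had 4701 and 6798 bp in WT and 2252 and 3331 bp in cKO-labelled cells. For H3K36me3, 4 were lower and 0 higher, beside 20.2% and 4.26% of all genes, and H3K36me3 was present in both WT libraries at all 11. Of 9 genes of histone assembly and import, 2 were higher and 3 lower for H3K27ac, and 0 were higher or lower for H3K36me3, against the same shares of all genes. These lists are too short for their counts to be read as apart from all genes. Nasp, a histone chaperone, had 2294 and 2330 bp in WT against 3219 and 4229 bp, whereas Asf1a, another chaperone, had 12146 and 11684 bp against 5718 and 8477 bp. The second cKO-labelled H3K27ac library, which set the size of the difference at histone genes, was the higher of the pair at Npat, Nasp and Asf1a too.

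Replication-independent histone genes, which include the targeted pair, were compared as the nearest relatives. Of 11 such genes, H3K27ac was higher in cKO-labelled cells at 4 (H3f3a, H3f3b, H2afz and Cenpa) and lower at 0, beside 10.3% and 22.0% of all genes. H2afz, which encodes the variant H2A.Z, had 0 and 4 bp in WT and 3030 and 3822 bp in cKO-labelled cells. Of these 11, 6 carried H3K36me3 in both WT libraries, beside 46.5% of all genes. For this mark 3 were higher and 2 lower in cKO-labelled cells, beside 4.26% and 20.2%. The windows of the 6 genes with H3K36me3 were 8051 bp (H3f3b) or longer, and those of the rest 4436 bp (H2afz) or shorter. The contrast with the replication-coupled genes, whose median window was 2539 bp, therefore cannot be told apart from window length. H3.3-HA was called in both libraries at 8 of the 11, beside 41.7% of all genes.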

How the data were processed

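The members and gene lists were chosen with earlier results of these data known. Per the labels and methods, the authors trimmed reads with cutadapt, aligned them with Bowtie2 (local mode, mm10) and called regions with HOMER in histone style, library by library against IgG controls that differed by genotype. Per the file headers, peaks of 500 bp at least 1000 bp apart needed 4-fold enrichment over the control. The deposited lists give region starts and ends in bp and a score that is the same in every row, so they hold no heights, and the 5 IgG samples enter only as controls. The authors' differential analysis used read counts, which were not used here, and precision rests on library depth and number.

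Regions (autosomes, X and Y) were merged per library, and covered bp per gene window were computed (Python 3.11.15, numpy 2.4.6, pandas 2.3.3), after a check on simulated regions. A gene was called higher or lower when both cKO-labelled libraries lay beyond both WT libraries. Nothing in the labels says that replicates were separate animals, so the spread may be technical. Named genes were every H3 gene with a region, the 5 genes with most H3.3-HA, up to 8 separated genes per mark and direction by size, and H3f3a and H3f3b. Alternatives changed the window, region width, list length, assignment of bases and libraries.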

Additional observations from a re-analysis of the deposited data

How the results depend on the processing

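Of 115 values recomputed under alternatives, 80 kept their direction with a move of at most 1.5 times for a count, or less than 1 SD between libraries for a difference of shares. With the gene body alone, both libraries had a region at 20 genes for H3.3-HA (29.9%, against 37.5% of all genes) and 14 for WT H3K27ac (20.9% against 41.8%), so that histone genes were below all genes. With regions of at least 1 kb these counts were 15 (22.4% against 24%) and 14 (20.9% against 30.7%), that of cKO-labelled H3K27ac was 22 (32.8% against 30.7%), and 12 genes were higher for H3K27ac in cKO-labelled cells (17.9% against 9.04%). With lists shortened to equal number by width, WT H3K27ac reached 17 genes (25.4% against 37.7%) and 2 were lower in cKO-labelled cells (2.99% against 17%). The difference of H3 genes from other classes for cKO-labelled H3K27ac was 3.98 percentage points with the start window. For H3K36me3, the gene body and the start window gave 0 genes in WT and in cKO-labelled cells, and regions of at least 1 kb, or bases given to the nearest gene, gave 1 in WT and 0 in cKO-labelled cells. Leaving out each library in turn, 24 to 48 genes were higher and 4 to 21 lower for H3K27ac, 0 to 1 higher and 0 to 2 lower for H3K36me3, and 1 to 2 had H3K36me3 in the remaining cKO-labelled lists. With same-numbered libraries paired as a replicate block, 26 genes were higher and 4 lower for H3K27ac, and 0 and 0 for H3K36me3. The numbers share no stated animal or day, and a paired sign-flip test of 2 pairs cannot go below 0.5. The difference of H3 genes from other classes reversed for H3.3-HA with the gene body (-5.73 percentage points), the start window (-6.89) and regions of at least 1 kb (-1.48). For WT H3K27ac it was -1.56 with the start window, -3.11 with regions of at least 1 kb, -0.664 with equal lists and 4.16 with bases given to the nearest gene. Leaving out a library gave -1.18 to 1.94 for H3.3-HA and -0.295 to 3.14 for WT H3K27ac. For WT H3K36me3 it was -0.0938 with the gene body, 0 with the start window and -0.111 with bases given to the nearest gene, and for cKO-labelled H3K36me3 0 with the start window. The cause of these shifts was not tested. Called regions carry no height, so a gene just above the calling threshold in a library and just below it in another counts as a difference, and tag thresholds scaled with depth.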
